A study of Mus musculus with 4 samples.

Results

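The heat shock proteins and chaperones were taken as the 91 genes, of 24421 in the count files, whose symbols name an Hsp70-type (Hspa), small (Hspb), chaperonin (Hspd1 and Hspe1), HSP90 or HSP110 protein, a J-domain protein (Dnaja, Dnajb, Dnajc), a CCT subunit, a BAG cochaperone, or the factors Hsf1 and Hsf2. They were measured by RNA-seq in regulatory T cells (Tregs), the CD4+ T cells that restrain immune responses and are specified by Foxp3. CD45.1+ mice received an intraperitoneal injection of EG7.1.15 tumor cells, at the same dose for every library, and formed omental tumors. These mice were also joined surgically to tumor-free CD45.1- partners, so that blood cells passed between the animals. The time joined and the time from injection to sorting were both 14 days. At day 14 after tumor injection, partner-derived Tregs of the strain B6 Foxp3-DTR/GFP were sorted from the tumor-bearing animals as live CD4+ CD25+ cells with the FoxP3(GFP)+ signal, positive for CD45.2 and negative for CD45.1 and B220. One group came from omental tumors and the other from spleens of the same hosts, with 2 libraries each, from mouse 2 and mouse 3. Every group thus carried the Foxp3-DTR/GFP allele, a tumor-bearing host and parabiosis, and no library came from a mouse without a tumor. The spleen libraries are therefore a tissue comparison and not an untreated control.

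Chaperones bind proteins that are not yet, or no longer, folded and release them in cycles of ATP use. HSP70 proteins take unfolded segments delivered by J-domain partners and let them go with the help of nucleotide exchange factors such as the BAG and HSP110 proteins, while HSP90, the mitochondrial HSP60 and HSP10 pair and the cytosolic CCT ring finish particular clients. Hsf1 drives the heat-inducible members when unfolded protein accumulates in the cytosol, and the unfolded protein response drives the members of the endoplasmic reticulum (ER). Activated and dividing T cells are known to need more chaperone capacity, and HSP90 and the CCT ring fold kinases, actin and tubulin in them.

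Levels are CPM, the usual depth-scaled counts, on library sizes adjusted by TMM factors, and a log2 fold change above 0 means a higher level in omental tumor. The libraries held 6660230 and 3764508 counts in genes for omental tumor of mouse 2 and mouse 3, and 9989005 and 13598631 for spleen. A single count was thus worth 0.131, 0.253, 0.0979 and 0.0915 CPM in that order. Each library came from bulk sorted cells, so fewer cells of a type and less RNA per cell cannot be told apart. The Treg genes Foxp3, Il2ra, Cd4 and Ptprc were present in every library. All 4 were lower in both omental libraries than in either spleen library, where 25.4% of all genes were so placed. Foxp3 measured 81.4 and 84.3 CPM in omental tumor and 113 and 145 CPM in spleen. Cd4 measured 376.3 and 114.2 against 568.3 and 1008, Il2ra 689.9 and 319.5 against 699.7 and 886.2, and Ptprc 2077 and 925.1 against 2596 and 4034. Their log2 fold changes ran from -1.68 to -0.64, and none was called. Of 16322 genes that passed the filter on low counts, edgeR's quasi-likelihood test with Benjamini-Hochberg adjustment called 233 (1.43%) at an adjusted p of 0.05, with 190 higher (1.16%) and 43 lower (0.263%) in omental tumor. With 2 libraries against 2, an exact two-sided permutation test of a single gene cannot give a p below 0.333.

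Bag1 was the single chaperone gene called of the 78 that passed the filter, and its high level came from the omental library of mouse 3 alone. The other 13 members, Cct8l1, Dnajb3, Dnajb7, Dnajb8, Dnajc5g, Dnajc25, Hspa1l, Hspa12b, Hspb2, Hspb3, Hspb7, Hspb8 and Hspb9, had too few counts to be tested, and Dnajb8 had none in any library. Across the tested members 34 log2 fold changes were above 0 and 44 below, where 53.9% and 46.1% of all genes were, with a median of -0.12, beside a median of 0.13 over all genes tested. At an unadjusted p of 0.05, 6 members passed as higher and 1 as lower, where 4.97% and 5.28% of all genes did, or 10.2% in either direction. The omental and spleen libraries did not overlap for 14 members higher in omental tumor, where 16.4% of all genes were so placed, and for 19 lower, where 25.4% were. Those shares of the members, 17.9% and 24.4%, were near the background of all genes.

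**Figure D1:**
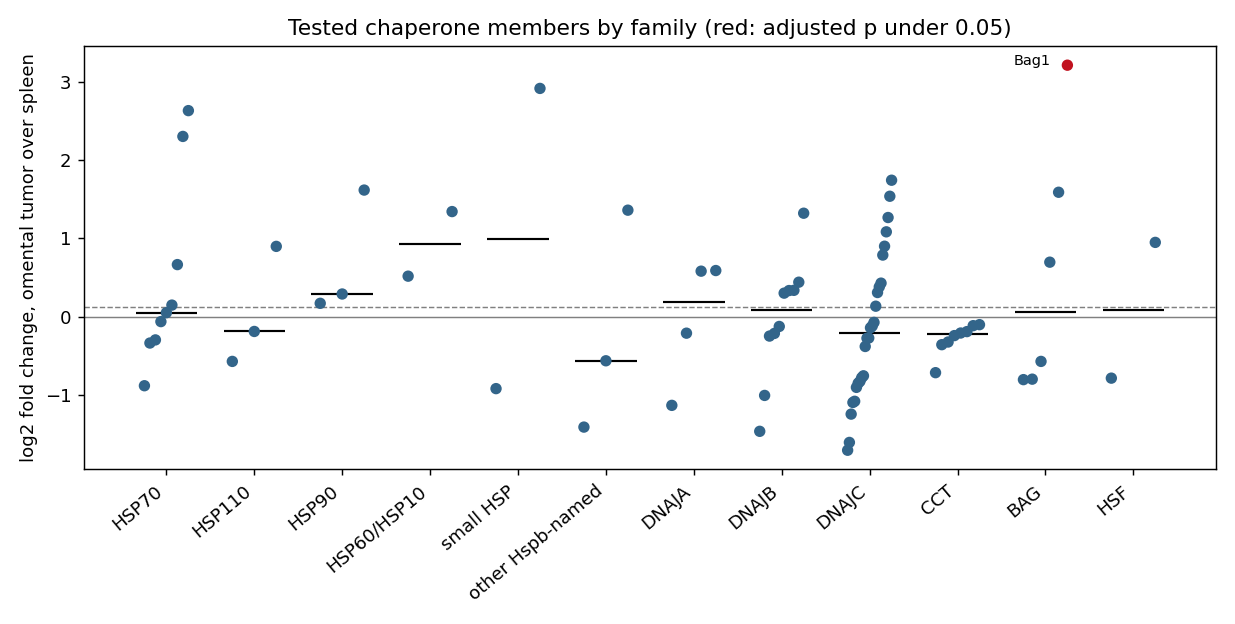
Log2 fold change of omental tumor over spleen (y axis) for the 78 tested chaperone genes, grouped by family along the x axis; each point is a gene, black bars are family medians and the dashed line is the median of all genes tested, 0.13. Bag1, in red, is the only point past the adjusted p of 0.05, and 7 of the 8 CCT points lie between -0.36 and -0.10, with Cct6b apart at -0.72.

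The mice differed in direction. In mouse 2, 42 of 78 members had a higher level in the omental library than in the spleen library, and in mouse 3, 31 did (53.8% and 39.7%, beside 53.4% and 51.8% of all genes tested). In both mice 20 members were higher in omental tumor (25.6%, beside 36.9% of all genes) and 25 lower (32.1%, beside 31.6%), and 33 had opposite directions (42.3%, beside 31.4%). On library totals those counts were 27, 20 and 31 (34.6%, 25.6% and 39.7%, beside 44.4%, 24.4% and 31.1% of all genes). The omental libraries lay over 2-fold apart for 33 members (42.3%, beside 52.1% of all genes tested), and the spleen libraries for 13 (16.7%, beside 39.2%). Summed over all members the levels were 13890 and 13050 CPM in omental tumor and 10150 and 16110 CPM in spleen, which overlap. Their log2 ratio was 0.45 in mouse 2 and -0.30 in mouse 3, and the mouse 3 value turned to 0.081 on library totals and 0.42 with upper-quartile factors.

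**Figure D2:**
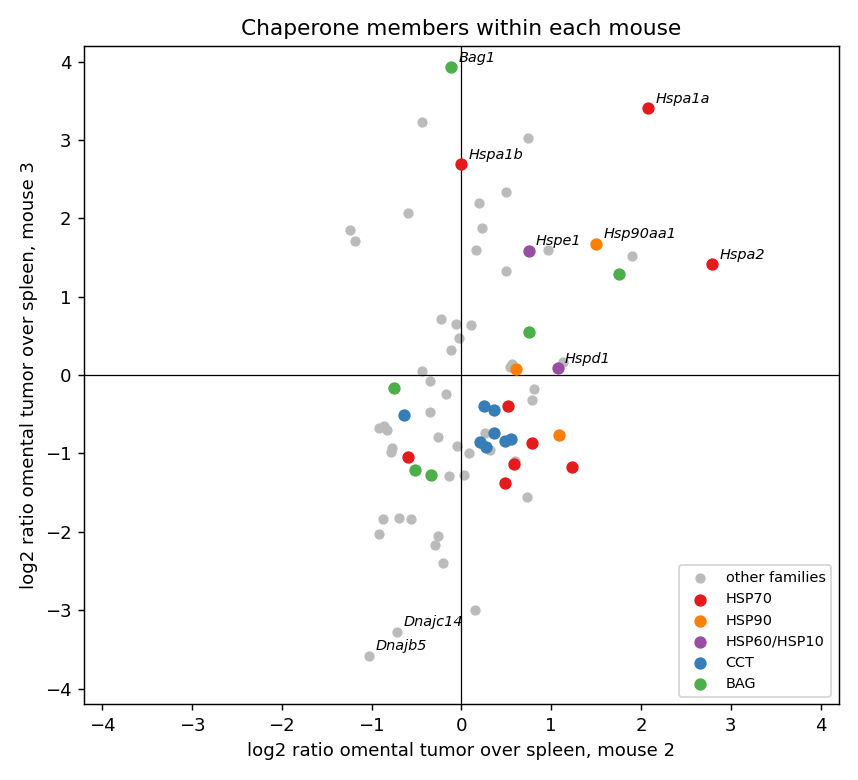
Log2 ratio of omental tumor over spleen in mouse 2 (x axis) and in mouse 3 (y axis) for the 78 tested members, computed on CPM plus 0.5, with colours for 5 families. Hspa1a, Hspa2, Hsp90aa1 and Hspe1 lie in the upper right, 7 of the 8 CCT genes lie together in the lower right with Cct6b in the lower left, and Bag1 lies far up at a mouse 2 ratio near 0.

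Scaled by the library gene totals alone, the members took 1.589% and 1.37% of the gene counts in omental tumor and 1.039% and 1.294% in spleen. On that scale the omental libraries did not overlap the spleen libraries, and the log2 ratio of the summed levels was 0.34, beside 0.04 with TMM factors. The median log2 fold change of all genes was 0.27 higher with library totals than with TMM factors. Members without overlap then numbered 21 higher, where 21.6% of all genes were, and 13 lower, where 19% were.

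Bag1, a nucleotide exchange factor that also binds BCL2, is encoded on chromosome 4 (GRCm38, 40936398 to 40948294, minus strand). It measured 6.04 CPM in omental tumor of mouse 2, 132.7 in omental tumor of mouse 3, and 6.56 and 8.24 in the spleens. The mouse 2 omental value lay below both spleens and the mouse 3 value was 22 times as high, so the groups overlapped. Bag1 rose in omental tumor by 3.22 (log2, SE 0.82, adjusted p = 0.0101 by edgeR's quasi-likelihood test with Benjamini-Hochberg adjustment). Without the omental library of mouse 3 the log2 fold change was -0.38 (adjusted p = 0.905), and with the mouse as a replicate block it was 1.99 (adjusted p = 0.332). The ratio of Bag1 to Bag5 counts, which needs no scaling between libraries, was 0.147 and 4.72 in omental tumor against 0.125 and 0.12 in spleen. None of Bag1's sequence, read as 50-base windows of its transcripts, occurs in another gene.

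Other measurements moved with that library. The summed level of 7 neutrophil markers was 139.8 and 1445 CPM in omental tumor and 93.8 and 58.0 in spleen. Of the 6 neutrophil markers tested, 4 were called higher, S100a9 among them at 1.58, 475.5, 9.10 and 7.50 CPM in the order omental mouse 2, omental mouse 3, spleen mouse 2, spleen mouse 3, and none of the 7 stood at 0 in any library. Short transcripts had higher ratios between the omental libraries than long ones. Bag1 is 1 of 7 tested members whose longest transcript is under 1500 bases, and their median ratio of the mouse 3 to the mouse 2 omental level was 2.54, beside 0.74 for the 71 longer members. Over all 78 members the Spearman correlation of transcript length with that ratio was -0.336, and over 15730 genes with a length it was -0.271, a description across genes of the same libraries. Between the spleens the trend had the same direction, with correlations of -0.201 and -0.116 and median ratios of mouse 3 to mouse 2 of 1.55 for the short and 1.35 for the longer members. The part of other cells or of transcript length in the Bag1 value was not tested.

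The other 5 BAG genes did not pass the test. Bag2, a cochaperone that holds back the ubiquitin ligase CHIP, measured 12.5 and 13.7 CPM in omental tumor and 3.33 and 5.31 in spleen, without overlap (log2 fold change 1.59, adjusted p = 0.573). Bag3, a heat-inducible partner of HSP70 in autophagy, gave 17.2 and 13.4 CPM against 9.98 and 8.97, again without overlap (0.70, adjusted p = 0.785). Bag5 and Bag6 had lower values in both omental libraries than in either spleen library, with log2 fold changes of -0.80 and -0.805 (adjusted p = 0.725 and 0.732).

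Hspa1a and Hspa2 gave the largest differences in the HSP70 family. Hspa1a, the classical heat-inducible HSP70 on chromosome 17 (34969359 to 34972156, minus strand), measured 26.0 and 16.5 CPM in omental tumor, beside 5.77 and 1.10 in the spleens. Both omental values exceeded both spleen values, and the difference held in each mouse, at log2 ratios of 2.08 and 3.41. Its log2 fold change was 2.64 (SE 0.93), which did not pass the threshold (adjusted p = 0.170). It passed with the replicate block (2.97, adjusted p = 0.0262), as 1.6% of all genes did, and by DESeq2 (2.82, adjusted p = 0.0405). The values rest on 198 and 65 counts in omental tumor and 59 and 12 in spleen.

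Hspa1b, its near-identical neighbour on chromosome 17, did not follow. It stood at 41.9 and 31.7 CPM in omental tumor and at 42.0 and 4.48 in spleen, so that a single spleen library was low (log2 fold change 0.67, adjusted p = 0.771). As 50-base windows, 66.3% of Hspa1a sequence and 62.3% of Hspa1b sequence occur in another gene's transcripts, mainly in each other's, and reads that aligned to more than 1 place were kept out of the gene counts. The split between the pair is therefore uncertain. Summed, their counts were 0.0335 and 0.0374 of the count of Hspa8, the constitutive HSP70, in omental tumor, and 0.0353 and 0.00197 in spleen. The spleen library of mouse 3 was low and the other 3 were alike.

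Hspa2, an HSP70 best known from spermatocytes, measured 34.1 and 15.9 CPM in omental tumor and 4.50 and 5.67 in spleen. The groups did not overlap, and the log2 fold change was 2.31 (SE 0.88, adjusted p = 0.249). None of its sequence is shared with another gene. Hspa8 itself measured 2025 and 1285 CPM against 1353 and 2828, and the mitochondrial Hspa9 measured 427.8 and 160.5 against 305.7 and 417.9. Both overlapped, with higher omental values in mouse 2 and lower ones in mouse 3. Hspa12a, a distant relative, was low throughout, at 2.76 and 1.77 CPM against 4.404 and 4.21. Summed over the HSP70 family, the log2 ratio was 0.64 in mouse 2 but -1.01 in mouse 3. Per kilobase of exon, Hspa8 was the most abundant member in spleen at 486.0 CPM per kb, ahead of Hsp90ab1 at 405.1, and in omental tumor Hsp90ab1 led at 495.3 ahead of Hspa8 at 384.7. The SD of Hspa8 between libraries of a tissue exceeded each of these gaps.

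**Figure D3:**
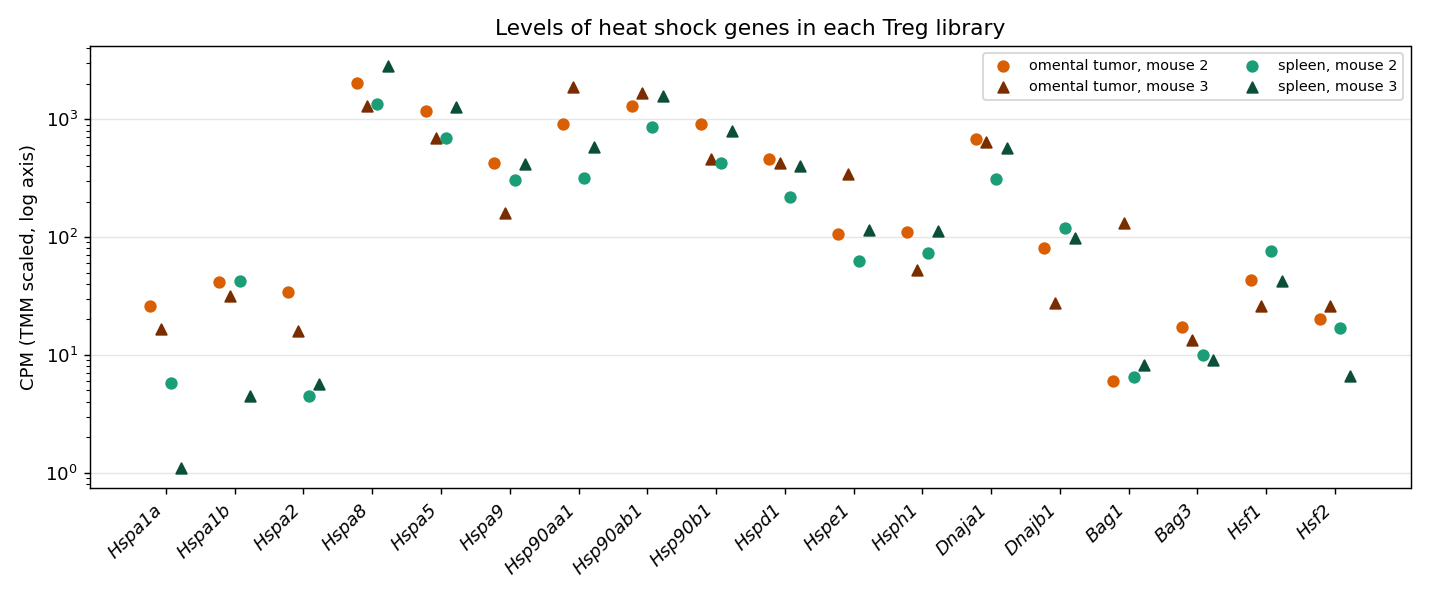
Level in each of the 4 libraries of the 18 chaperone genes followed by name, as CPM on a log axis; orange symbols are omental tumor, green ones spleen, circles mouse 2 and triangles mouse 3. Both orange symbols lie above both green ones for Hspa1a, Hspa2, Hsp90aa1, Hspd1, Dnaja1, Bag3 and Hsf2, and below them for Dnajb1. For Bag1 the orange triangle alone is high.

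HSP90, the dimeric chaperone of kinases and steroid receptors, was higher as a family in omental tumor in both mice. The summed level was 3116 and 3998 CPM in omental tumor and 1602 and 2947 in spleen, without overlap. Its log2 ratio was 0.65, with 0.96 in mouse 2 and 0.44 in mouse 3. That value stayed above 0 in all 8 other settings computed, from 0.27 to 1.199. Those settings include the median log2 fold change of the members in place of the sum. No member passed the test.

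The inducible cytosolic form Hsp90aa1 carried most of it. It measured 907.5 and 1868 CPM in omental tumor and 320.2 and 583.0 in spleen, with both omental libraries above both spleen libraries. The log2 fold change was 1.62 (SE 0.96, adjusted p = 0.574), and the ratios within mouse 2 and mouse 3 were 1.501 and 1.68. Hsp90ab1, the constitutive cytosolic form, overlapped at 1304 and 1666 CPM against 857.3 and 1573 (0.29, adjusted p = 0.924). Hsp90b1, the ER form, overlapped at 903.9 and 464.1 against 424.7 and 791.0 (0.17, adjusted p = 0.950).

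Within a library, Hsp90aa1 reached 0.696 and 1.12 of the Hsp90ab1 count in omental tumor and 0.373 and 0.371 in spleen. The spleen libraries gave nearly the same ratio, and both omental libraries lay above it. Of Hsp90aa1 sequence 58.5% of 50-base windows occur elsewhere, mostly in processed copies, beside 4.49% of Hsp90ab1. Reads with several alignments, which never reached a gene, took 33.5% of the entries in omental tumor of mouse 2 and 49.9% in that of mouse 3, beside 30.2% and 28% for the spleens. The part of such reads in the ratio was not tested.

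**Figure D4:**
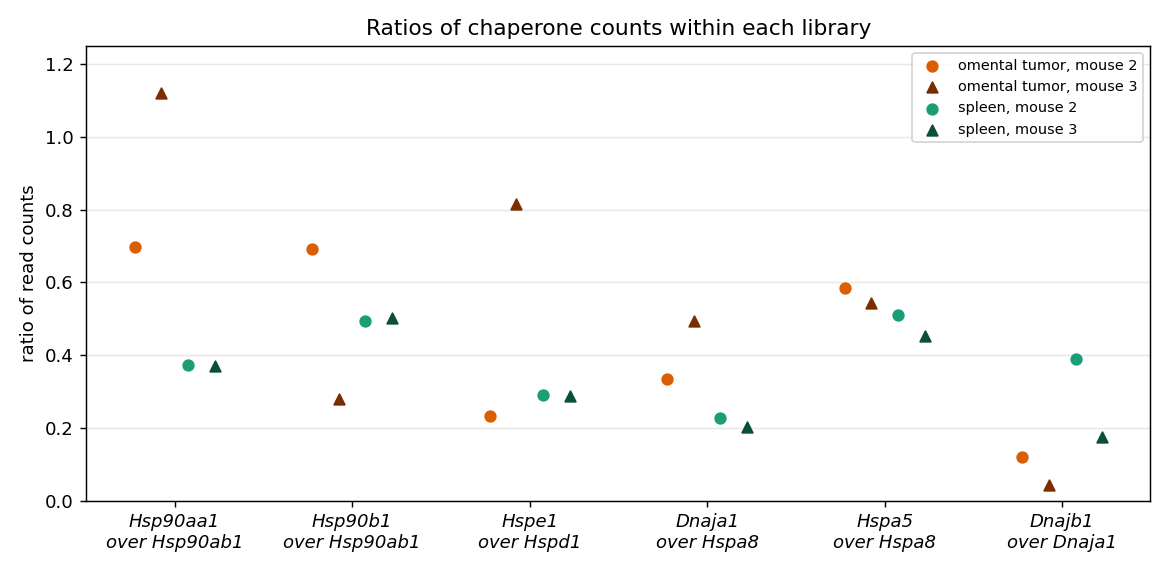
Ratio of the read counts of 6 pairs of chaperone genes within each library (y axis, linear), with omental tumor in orange, spleen in green, circles for mouse 2 and triangles for mouse 3. For Hsp90aa1 over Hsp90ab1, Dnaja1 over Hspa8 and Hspa5 over Hspa8 both omental symbols lie above both spleen symbols, and for Dnajb1 over Dnaja1 below them.

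HSP60 and HSP10, encoded by Hspd1 and Hspe1, form the folding chamber of mitochondria. The genes lie head to head on chromosome 1, with 215 bases between a RefSeq start of Hspd1 (55087932, GRCm38.p6) and that of Hspe1 (55088148). A further Hspd1 start at 55088243 lies past the Hspe1 start, so transcripts from it overlap Hspe1. Between the Hspe1 start and the Hspd1 start at 55087932 lies a pair of overlapping heat shock elements, the site bound by Hsf1. The pair is printed here on the Hspe1 strand because it serves as the promoter match of both genes. The second sequence is the match upstream of Dnajb6, a J-domain protein that suppresses aggregation. Capitals mark the matches, at chr1:55088059-55088076 on the plus strand and chr5:29735852-29735864 on the plus strand.
Hspd1 and Hspe1: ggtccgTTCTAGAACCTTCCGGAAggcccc
Dnajb6: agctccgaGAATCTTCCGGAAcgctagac

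The motif searched was GAA, TTC and GAA in that order with any 2 bases between neighbours, or on the other strand TTC, GAA and TTC spaced likewise, in the window from 250 bases before to 50 after each RefSeq start. Of 74 members with a promoter entry 4 held it (5.41%), namely Hspd1, Hspe1, Dnajb6 and Hsph1, and of all 27025 symbols with an entry 179 did (0.662%). The Hspd1 and Hspe1 match also falls in an exon of a longer Hspd1 transcript in GENCODE. Likewise the Dnajb6 match falls in exons of Dnajb6 and Gm5129, and the Hsph1 match, which lies after the start, in Hsph1 exons. Hspe1 measured 106.6 and 346.1 CPM in omental tumor and 63.2 and 114.8 in spleen (log2 fold change 1.34, SE 0.76, adjusted p = 0.553), and Hspd1 460.0 and 424.3 against 218.7 and 398.9 (0.52, adjusted p = 0.831). Hspd1 did not overlap between tissues, while Hspe1 of mouse 2 omental tumor lay below the mouse 3 spleen. Dnajb6 stood at 226.6 and 247.1 CPM in omental tumor and 155.1 and 229.4 in spleen, and Hsph1, an HSP110 exchange factor, at 110.3 and 52.7 against 72.9 and 113.2.

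Together Hspd1 and Hspe1 summed to 566.6 and 770.4 CPM in omental tumor and 281.9 and 513.8 in spleen. Those groups did not overlap, and the log2 ratio was 0.75 (1.01 in mouse 2 and 0.58 in mouse 3). It was above 0 in all 8 other settings, from 0.38 to 1.31, which include the median of the members in place of the sum. The balance of the pair differed in a single library. Hspe1 counts were 0.289 and 0.288 of Hspd1 counts in the spleens and 0.232 in omental tumor of mouse 2, but 0.816 in omental tumor of mouse 3, and the longest Hspe1 transcript has 964 bases. Sequence found elsewhere made up 44.8% of Hspd1 and 8.20% of Hspe1.

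A heat-inducible list drawn from the members also held Hspa8, the constitutive HSP70. Of its 14 tested genes, 10 had a log2 fold change above 0, with a median of 0.55, beside 0.13 over all genes. Both omental libraries lay above both spleens for 6 of the 14, where 16.4% of all genes did, and below for 1, where 25.4% did. None was called, and 2, Hspa1a and Hspb1, passed an unadjusted p of 0.05 as higher, where 4.97% of all genes did. Hspb1, the small heat shock protein HSP27, measured 1.31 and 5.06 CPM in omental tumor and 0.59 and 0.18 in spleen from 10, 20, 6 and 2 counts (log2 fold change 2.92, adjusted p = 0.439). Of the 4 below 0, Dnajb1, the J-domain partner HSP40 and a direct heat shock gene, was the one whose tissues did not overlap, at 81.1 and 27.3 CPM in omental tumor and 120.1 and 98.9 in spleen. It was lower in both mice, without overlap (-1.01, SE 0.74, adjusted p = 0.668).

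The early response genes, which cell isolation can induce, were measured beside this list. Their summed level over 10 genes was 2190 and 2635 CPM in omental tumor and 1670 and 1113 in spleen, and Atf3 and Dusp1 were called higher. Junb gave the largest share of that sum, at 1137 and 980.8 CPM in omental tumor and 583.5 and 104.4 in spleen. Of the 10 genes, 6 had a log2 fold change above 0 and 4 below, with Zfp36 lower without overlap (-0.63) and Jun, Btg2 and Ier2 overlapping at -0.67, -0.29 and -0.052. Atf3 measured 63.3 and 118.7 CPM against 1.37 and 0.82. The part of sorting and tissue dissociation in the heat-inducible genes was not tested.

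The factors themselves differed in opposite ways. Hsf1, the main heat shock factor, stood at 43.1 and 26.1 CPM in omental tumor and 76.9 and 42.7 in spleen, and overlapped narrowly (log2 fold change -0.79, adjusted p = 0.730). Hsf2, which can pair with Hsf1, stood at 20.1 and 25.8 CPM against 17.0 and 6.68, without overlap (0.95, adjusted p = 0.710).

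Of the 10 tested members of an ER list, 2 were higher and 2 lower in omental tumor without overlap (20% each, beside 16.4% and 25.4% of all genes). That list left out Dnajc14, an ER membrane protein given below. Dnajc14 was lower in omental tumor without overlap (log2 fold change -1.71) and passed an unadjusted p of 0.05. Hspa5 (BiP), the ER HSP70 and central target of the unfolded protein response, measured 1185 and 699.3 CPM in omental tumor and 688.2 and 1280 in spleen. The higher value was the omental one in mouse 2 and the spleen one in mouse 3, and the log2 fold change was -0.06 (adjusted p = 0.982). Hspa5 counts were 0.585 and 0.544 of Hspa8 counts in omental tumor and 0.509 and 0.453 in spleen. Over these 10 members the median log2 fold change was 0.04, with 5 above 0, 5 below and none called. At an unadjusted p of 0.05, 1 passed, where 10.2% of all genes did. That gene was Dnajc1, a J-domain protein of the ER membrane, at 20.1 and 82.0 CPM against 17.4 and 17.5, high in omental tumor of mouse 3.

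The ER stress element, CCAAT and CCACG with any 9 bases between them, or CGTGG and ATTGG on the other strand, lay in the promoter windows of 3 members, Hspa5, Hsp90b1 and Dnajc3 (4.05% of the 74 with an entry, beside 0.137% of all 27025). The element is the site through which Atf6 acts with the factor NF-Y. The matches are printed because they tie these 3 ER members together, with capitals for the element, on the strand of each gene, at chr2:34772025-34772043 (plus), chr10:86705638-86705656 and chr10:86705533-86705551 (minus), and chr14:118937827-118937845 (plus) of GRCm38.p6.
Hspa5: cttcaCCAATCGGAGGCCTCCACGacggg
Hsp90b1, far: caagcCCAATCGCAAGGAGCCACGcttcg
Hsp90b1, near: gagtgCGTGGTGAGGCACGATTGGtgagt
Dnajc3: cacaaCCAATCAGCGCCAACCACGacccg

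These matches describe letters and not binding. The Hspa5 match also falls in an exon of an Hspa5 transcript in GENCODE, and those of Hsp90b1 and Dnajc3 fall in no exon. Hspa5 and Hsp90b1 shared the pattern across libraries, with mouse 2 omental and mouse 3 spleen high and the other pair low. Dnajc3, the J-domain protein p58IPK that limits the PERK kinase, went the other way, at 49.8 and 85.3 CPM in omental tumor and 118.6 and 23.2 in spleen.

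Of 22 further genes of the unfolded protein response, none was called by edgeR or in any other setting computed, DESeq2 and limma-voom included, and their median log2 fold change was 0.13. At an unadjusted p of 0.05, 3 of the 22 passed, all higher, where 4.97% of all genes passed as higher and 10.2% in either direction. Sdf2l1, a BiP cofactor, measured 63.1 and 102.0 CPM in omental tumor and 30.1 and 9.06 in spleen (log2 fold change 2.07, adjusted p = 0.223). Ern1, which encodes the stress sensor IRE1, measured 17.3 and 18.5 against 6.95 and 1.28 (2.12, adjusted p = 0.363). Creld2, an ER stress gene of disulfide exchange, measured 28.2 and 62.3 against 22.1 and 6.13 (1.67, adjusted p = 0.441). All 3 were lowest in the spleen of mouse 3.

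J-domain proteins bring clients to HSP70 and start its ATPase. Dnaja1, the main cytosolic partner of Hspa8, measured 676.8 and 635.0 CPM in omental tumor and 308.3 and 567.9 in spleen, without overlap (log2 fold change 0.58, adjusted p = 0.816). Dnaja1 counts were 0.334 and 0.494 of Hspa8 counts in omental tumor and 0.228 and 0.201 in spleen, and Dnajb1 counts were 0.12 and 0.0431 of Dnaja1 counts against 0.39 and 0.174. Both ratios separated the tissues in both mice, in opposite directions. Dnaja1 is the numerator of the first and the denominator of the second, so these directions are not independent. Sequence found in other genes made up 28.8% of Dnaja1, 52.7% of Hspa8 and 0.441% of Dnajb1.

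The remaining Dnaja and Dnajb genes had no common direction. Dnaja2, a cytosolic partner of HSP70, stood at 185.9 and 205.6 CPM in omental tumor and 236.2 and 216.9 in spleen, and Dnaja4 at 3.68 and 18.5 against 9.003 and 5.31. Among the Dnajb genes, Dnajb9, an ER cofactor of BiP, measured 24.4 and 12.4 CPM against 13.9 and 15.6, and Dnajb13, a protein of cilia and flagella, 23.4 and 47.9 against 21.6 and 30.6. These 4 overlapped between tissues except Dnaja2. Dnajb14, a membrane protein of the ER, was higher in both omental libraries at 9.85 and 12.7 CPM against 6.85 and 2.10 (log2 fold change 1.32, adjusted p = 0.659). Dnajb5 had no count in omental tumor of mouse 3 and 5.91 CPM in that of mouse 2, beside 12.6 and 5.49 in spleen (adjusted p = 0.644).

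The 26 tested Dnajc genes had 10 log2 fold changes above 0 and 16 below, with a median of -0.21 and a summed log2 ratio of -0.37 (-0.43 in mouse 2 and -0.31 in mouse 3). With upper-quartile factors that sum was 0.16. Dnajc14, a J-domain protein of the ER membrane that binds dopamine receptors, measured 69.8 and 17.2 CPM in omental tumor and 115.5 and 171.0 in spleen. It was the member lower at an unadjusted p of 0.05 (log2 fold change -1.71, SE 0.75, adjusted p = 0.377). Of its 50-base windows, 25.6% occur in transcripts of other genes, most often Ormdl2. Dnajc12, a cofactor for aromatic amino acid hydroxylases, measured 17.5 and 23.3 CPM against 4.31 and 7.78, without overlap and with ratios of 1.90 and 1.52 in the mice (1.75, SE 0.88, adjusted p = 0.483). Dnajc2, a ribosome-bound J-domain protein, was high in omental tumor of mouse 3 alone, at 55.9 and 170.4 CPM against 76.1 and 17.7.

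In mitochondria, 9 tested members had a median log2 fold change of -0.30. Dnaja3, the mitochondrial J-domain protein Tid1, measured 68.1 and 28.4 CPM in omental tumor and 83.4 and 129.3 in spleen, without overlap (-1.13, adjusted p = 0.621). Hspd1 and Hspe1 were thus higher in omental tumor in both mice where Dnaja3 was lower in both, and no test of that difference was made.

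The CCT ring subunits shared a pattern across libraries that ran with the mouse. All 7 ring subunits among the members, Cct2, Cct3, Cct4, Cct5, Cct6a, Cct7 and Cct8, were higher in omental tumor than in spleen in mouse 2, by log2 0.21 to 0.55. All 7 were lower in mouse 3, by -0.91 to -0.39. These directions were the same for all 7 on library totals and with RLE factors, while with upper-quartile factors 2 of the 7 were higher in mouse 3. The highest library depended on the scaling, being the spleen of mouse 3 for all 7 with TMM or RLE factors and the omental tumor of mouse 2 for all 7 on library totals. Their levels ran from 257.5 to 526.8 CPM in omental tumor of mouse 2, 213.2 to 562.8 in that of mouse 3, 199.5 to 443.0 in spleen of mouse 2 and 357.2 to 737.3 in spleen of mouse 3. None was called, none passed an unadjusted p of 0.05, and the log2 fold changes lay between -0.36 and -0.10. The family's log2 ratio of -0.21 turned to 0.11 on library totals and to 0.32 with upper-quartile factors.

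Tcp1, the eighth ring subunit, whose symbol lies outside the member pattern, had the same pattern at 310.2 and 267.4 CPM in omental tumor and 220.9 and 384.1 in spleen. Cct6b, the testis form of a subunit, was low throughout, at 1.58 and 1.52 CPM against 2.74 and 2.38. The narrow range of the ring subunits stands beside Hspa1a, Hsp90aa1 and Hspe1, whose log2 ratios within a mouse reached 3.41, 1.68 and 1.59.

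HSP110 proteins, exchange factors of HSP70, showed no shared direction. Hspa4 measured 38.2 and 126.6 CPM in omental tumor and 58.1 and 29.9 in spleen, and Hspa4l 50.7 and 27.3 against 49.5 and 66.9. Small heat shock proteins, which hold unfolded protein without ATP, were scarce. Of 7 listed, Hspb1 and Hspb6 were tested, and Hspb6 stood at 2.10 and 3.04 CPM in omental tumor and 4.404 and 5.12 in spleen (log2 fold change -0.92, adjusted p = 0.777). Hspb2, Hspb3, Hspb7 and Hspb8 had 0 counts in both spleens and at most 6 in an omental library. Hspb9 had 0 counts in both omental libraries and 4 and 5 in the spleens. A count of 0 allows up to 3 counts, or 0.394 and 0.760 CPM in omental tumor and 0.294 and 0.275 in spleen, and none of these genes was tested.

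The symbol pattern also took 3 genes that are no small heat shock proteins. Hspb11, an intraflagellar transport subunit, measured 18.4 and 32.1 CPM in omental tumor and 9.20 and 10.3 in spleen (log2 fold change 1.36, adjusted p = 0.593). Hspbap1, a protein that binds HSP27, measured 18.4 and 15.4 against 33.96 and 56.3 (-1.41, adjusted p = 0.536). Hspbp1, an HSP70 exchange factor, measured 48.7 and 53.7 against 58.5 and 92.8 (-0.56, adjusted p = 0.791). None of these groups overlapped.

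Cochaperones and prefoldin subunits outside the pattern were read from a further list. Of 29 tested of 30 listed, none was called by edgeR or in any other setting computed. None passed an unadjusted p of 0.05, where 10.2% of all genes did. Their median log2 fold change was 0.06, with 16 above 0 and 13 below. The smallest p-values belonged to Unc45a, a myosin chaperone, Grpel2, a mitochondrial exchange factor, Sgta, which guides tail-anchored proteins, and Fkbp8, a mitochondrial immunophilin. Both omental libraries were below both spleens for these 4, with log2 fold changes of -1.16, -1.18, -1.10 and -1.11 (adjusted p = 0.612, 0.621, 0.637 and 0.650). Of the 29 tested, 6 were lower without overlap (20.7%, beside 25.4% of all genes) and 1 higher (3.45%, beside 16.4%).

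Markers of other cells were measured for the whole set of members. Macrophage markers summed to 462.5 and 814.5 CPM in omental tumor and 177.7 and 357.8 in spleen over 8 genes, with Cd14 and Lyz2 called higher. The 8 genes were split, 4 above 0 and 4 below, with Csf1r lower without overlap (log2 fold change -1.74) and C1qa, Adgre1 and C1qb overlapping at -0.88, -0.84 and -0.34. Fibroblast and mesothelial markers summed to 175.9 and 15.4 CPM in omental tumor and 13.6 and 6.95 in spleen over 8 genes, of which 5 were tested and Col3a1 was called, and Lum was at 0 in both libraries of mouse 3. B cell markers summed to 78.6 and 23.8 against 46.9 and 49.7 CPM over 4 genes, and erythroid markers to at most 5.51 CPM, with Hbb-bs and Hba-a1 at 0 throughout. Adipocyte markers summed to 3.94 and 45.1 CPM in omental tumor and 2.84 and 2.38 in spleen, of which Fabp4 alone was tested and called. Fabp4 made up 44.3 CPM of the mouse 3 omental sum, where Plin1 and Cidec had no count and Adipoq stood at 0.76 CPM, beside 0.915 in the spleen of that mouse. Genes of the T lineage summed to 3035 and 3957 CPM in omental tumor and 4650 and 7677 in spleen over 7 genes, none of them called. The part of other cells in the chaperone levels was not tested.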

How the data were processed

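The deposited values are raw read counts per gene symbol, 1 file per library. Per the submitters' processing notes, the authors used Trim Galore, TopHat2, SAMtools and HTSeq with mm10; no source used here gives their versions, the gene annotation or the use of strand in counting. Per the labels' protocols, cDNA came from the SMART-seq v4 kit and libraries from Nextera XT. Neither marks the strand, so reads of overlapping or antisense genes cannot be told apart. The 5 HTSeq summary entries were left out, and genes held 17.1% and 22.2% of the omental entries and 24.9% and 46% of the spleen entries. Intervals and floors cover counting error only.

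The tissues were compared by edgeR 4.0.16 under R 4.3.3 (filterByExpr with a minimum count of 10, TMM factors of 1.15, 1.05, 1.03 and 0.804, estimateDisp, glmQLFit, glmQLFTest, Benjamini-Hochberg over 16322 genes, threshold 0.05), with tissue alone in the model and 2 residual degrees of freedom. The form of glmQLFit was chosen after both results were seen, to follow earlier processing of these files: the newer form called 233 genes and the legacy form, the installed default, 215. The prior degrees of freedom were infinite, so SE and p do not measure a gene's own spread. On simulated data of 15615 genes, 8.16% of 4-fold and 50% of 16-fold changes were called, with 2 unchanged genes. Mouse numbers mark the same animal in both tissues and pair the samples by the labels. Same-mouse deviations correlated at 0.206 across genes. Alternatives were upper-quartile and RLE factors, scaling by library totals, a minimum count of 50 or none, limma-voom 3.58.1, DESeq2 1.42.0, the replicate block, an adjusted p of 0.01, each library left out, and, chosen after seeing the data, the legacy form and the within-mouse directions under each scaling.

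The members and lists were chosen with earlier results of these data known. Named were called members, the 4 smallest p-values of each family and list, and fixed anchors. Cct5, Cct6a, Cct7, Cct8, Tcp1, Dnajb6, Dnajc3 and the untested low members were added after their values were seen. Family sums and within-mouse ratios carry no test. Within-mouse log2 ratios of single genes added 0.5 CPM. Exon lengths and 50-base windows came from GENCODE M21 and promoters from RefSeq, both GRCm38, the build of mm10, and 17 members had no promoter entry.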

Additional observations from a re-analysis of the deposited data

How the results depend on the processing

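Of 16322 genes tested, 233 were called at first. That count was 28 with library totals, 0 without a filter (1903 at an unadjusted p of 0.05), 4 with a minimum count of 50, 370 by DESeq2 and 146 at an adjusted p of 0.01, and 60 to 273 with a library left out. The replicate block called 261 genes. Of the members 1 was called with the block too, but it was Hspa1a and not Bag1. No member was called with library totals, without a filter, with a minimum of 50, by limma-voom or at an adjusted p of 0.01. In that order, 8 of 78, 10 of 90, 9 of 71, 6 of 78 and 7 of 78 members passed an unadjusted p of 0.05. Of all genes, 1222 of 16322, 1903 of 23104, 986 of 10803, 1743 of 16322 and 1673 of 16322 did. DESeq2 called 2 members (Bag1 and Hspa1a). Of the settings that left a library out, only that without the mouse 2 omental library kept Bag1 called, at 4.15 (adjusted p = 0.000284). Bag1 also passed with RLE and upper-quartile factors, by DESeq2 and in the legacy form, and its adjusted p ranged to 0.905 over all settings.

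Summed log2 ratios with upper-quartile factors were 0.56 for all members, 0.71 for BAG, 0.32 for CCT, 0.75 for DNAJA, 0.46 for DNAJB, 0.16 for DNAJC, 0.58 for HSP110, 1.31 for HSP60 and HSP10, 1.199 for HSP90, 0.059 for the other Hspb-named genes and 0.83 for small HSPs, with HSP70 and HSF turning from -0.21 to 0.30 and from -0.32 to 0.16. Upper-quartile factors moved the median of all genes by 0.49. RLE factors gave -0.22 for DNAJC and 0.18 for HSP110, and library totals gave 0.53 for DNAJA, 0.24 for DNAJB, -0.10 for DNAJC and 0.33 for HSP110. Medians of members in place of sums were -0.21 for DNAJC, -0.19 for HSP110 and 0.999 for small HSPs. With each library left out in turn, the sums ranged from -0.26 to 0.41 for all members, -0.19 to 0.46 for BAG, -0.55 to 0.24 for CCT, -0.013 to 0.52 for DNAJA, -0.71 to 0.22 for HSF, -0.05 to 0.17 for HSP110, 0.38 to 1.246 for HSP60 and HSP10, 0.27 to 1.15 for HSP90, -0.63 to 0.31 for HSP70, -0.20 to 0.12 for DNAJB, -0.77 to -0.12 for the other Hspb-named genes and -0.28 to 0.67 for small HSPs.

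Among 44 named members, 28 kept their direction in every setting computed. With upper-quartile factors the direction turned for Cct3 (0.16), Cct4 (0.18), Cct2 (0.28), Dnaja2 (0.31), Hsph1 (0.29), Hspa8 (0.17), Hspa5 (0.44) and Hspa9 (0.17). With library totals it turned for Cct2 (0.083), Dnaja2 (0.047), Hsph1 (0.14), Hspa8 (0.008), Hspa5 (0.28) and Hspa9 (0.027), and with a minimum count of 50 for Cct2 (0.064), Dnaja2 (0.052), Hsph1 (0.10) and Hspa5 (0.24). With each library left out, log2 fold changes ranged from -0.38 to 4.15 for Bag1, -0.75 to 0.30 for Cct3, -0.63 to 0.18 for Cct4, -0.66 to 0.47 for Cct2, -1.04 to 1.36 for Dnaja4, -0.37 to 0.004 for Dnaja2, -0.25 to 1.07 for Dnajb13, -0.29 to 1.51 for Hspa4, -0.84 to 0.31 for Hsph1, -0.14 to 1.09 for Hsp90ab1, -0.41 to 0.85 for Hsp90b1, -0.92 to 0.081 for Hspbp1, -0.83 to 0.48 for Hspa8, -0.51 to 0.63 for Hspa5, -1.19 to 0.15 for Hspa9 and -0.26 to 0.64 for Dnajb9. Of all turned values, only that of Bag1 belonged to a called gene. The cause was not tested. Low members rest on few counts, such as the 2 to 20 counts a library for Hspb1.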
